A study of Homo sapiens with 12 samples.

Results

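Amino acid starvation was tested for its effect on how the ribosomes of each mRNA divide between monosomes and polysomes in HEK293 cells, a human embryonic kidney line. The comparison rests on 8 of the 12 ribosome profiling libraries of the study: AA starved monosome, AA starved polysome, LogPhase monosome and LogPhase polysome, each with a library lettered A and one lettered B. AA starved cells spent 1 h in Earle's salt solution with vitamins and 10% serum, and LogPhase cells grew in DMEM with 10% serum. Serum starved cells spent 2 h without serum. Their libraries served as a further contrast and were also part of the fit, where they entered the scaling and the estimate of spread. All lysates held cycloheximide at 100 µg/ml, which stops ribosomes on the mRNA, and fragments of 17 to 34 nt were sequenced. No label says that A and B come from separate cultures, so every p-value measures the spread between these libraries, which may be technical. The measure is the ratio shift: the log2 monosome over polysome ratio in AA starved cells minus that in LogPhase cells. A positive shift means that a gene's footprints moved towards monosomes relative to the other genes. Of 6375 genes with a called coding open reading frame (ORF), 4765 had enough footprints to be tested.

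A monosome is an mRNA with 1 bound ribosome and a polysome carries several, so the gradient fraction in which an mRNA is found follows its rate of initiation, the length of its ORF and the speed of elongation. Withdrawal of amino acids inhibits mTORC1 and activates the kinase GCN2, which lower initiation on most mRNAs, and mRNAs with a 5′ terminal oligopyrimidine tract (5′TOP), such as those of ribosomal proteins, are the best known targets of mTORC1. Replication-dependent histone mRNAs are the only known animal mRNAs that end in a stem-loop in place of a poly(A) tail. They are bound by the stem-loop binding protein SLBP, encode short basic proteins and are made in S phase.

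The monosome libraries held 172836 and 211537 coding footprints in AA starved cells and 289228 and 346200 in LogPhase cells. The polysome libraries held 1493881 and 2598103 in AA starved cells and 5313462 and 2039730 in LogPhase cells. Values are relative to the coding footprints of the same library, and a loss of polysomes common to all mRNAs therefore does not show in the shift. Footprints follow mRNA level as well as translation, and no mRNA libraries were used here. Of 12 marker genes of the HEK293 line 4 passed the count filter (LIN28B, NEFL, NEFM and VIM), and of 18 markers of other cell types 0 did.

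Replication-dependent histones made up 26 of the 51 genes with a higher ratio when the letter was a block (42 genes of the whole histone list among 334 with a letter effect per fraction, beside 208 other named genes), and so the start sites of 1 gene of each core class are shown first. The 60 bases before the RefSeq start (GRCh38.p14, 5′ to 3′ on the strand of the gene) are printed with the letters TATAAA in capitals: H4C11 (chr6:27824032-27824091, plus strand), H3C2 (chr6:26032100-26032159, minus strand), H2AC14 (chr6:27814778-27814837, minus strand) and H2BC11 (chr6:27132796-27132855, minus strand).
H4C11: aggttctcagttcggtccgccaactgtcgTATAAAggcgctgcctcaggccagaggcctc
H3C2: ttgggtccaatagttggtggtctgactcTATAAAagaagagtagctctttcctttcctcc
H2AC14: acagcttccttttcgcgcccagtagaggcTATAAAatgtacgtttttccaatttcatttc
H2BC11: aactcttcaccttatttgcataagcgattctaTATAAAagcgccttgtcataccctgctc
Of the 44 tested replication-dependent histones, 42 have an entry in RefSeq's promoter table. TATAAA was found within these 60 bases, on the strand of the gene, in 25 of the 42 (59.5%), against 81 of 3697 tested genes with an entry (2.19%) and 843 of all 27305 promoters (3.09%). CCAAT, on either strand of the 250 bases before the start, was found in 33 of the 42 (78.6%) and in 37.4% of tested genes. Of the 5 tested polyadenylated or variant histones, 2 held TATAAA (40.0%) and 3 held CCAAT (60.0%). These matches describe letters in the table and are not measured binding sites.

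Across all genes, libraries A and B differed in a shared way, most of all in polysomes (correlation of B minus A deviations 0.742 to 0.843 between polysome groups, 0.182 to 0.286 between monosome groups and 0.156 to 0.395 between fractions, over 4765 genes). With group means only, 0 of 4765 genes passed an adjusted p under 0.05 (edgeR quasi-likelihood test with Benjamini-Hochberg adjustment), 158 genes had a higher (3.32%) and 44 a lower ratio (0.923%) at an unadjusted p under 0.05, and DESeq2 called 26 genes higher (0.546%). With the letter added as a replicate block, 51 genes rose (1.07% of those tested) and 4 fell (0.0839%), 1.15% in all. With a separate letter effect in each fraction 334 were called higher (7.01%) and 159 lower (3.34%), 10.3% in all, and with one in each condition 32 were called higher (0.672%) and 2 lower (0.042%), 0.714% in all. All 55 genes called with the letter block were also called with a letter effect per fraction, 34 of them with one per condition, and 25 of them by DESeq2. Below, rose and fell are used of genes called with the letter block. Genes outside the rule given in the methods, such as H1-1, H1-4, H4C12 and SLBP, were picked after their values were seen.

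Of the 51 genes that rose, 31 carry histone symbols, 2 encode ribosomal proteins, 13 are other named genes and 5 have no unique name in RefSeq. They hold 48 distinct count profiles, since 3 pairs of near-identical genes, H2AC18, H3C14 and LOC102724334 each with an unnamed copy, have the same counts in every library. The main called ORF of H2AC18 and of its copy is 12 nt long. Reads of histone paralogs are split by the caller and single members are uncertain for that reason. In 50 of the 51 the footprint share was higher in AA starved than in LogPhase monosomes and lower in AA starved than in LogPhase polysomes. The same combination was found in 1086 of 4765 tested genes (22.8%). Choosing genes for a higher ratio favours this combination, so the count is a description. The number of calls depended on single libraries of both fractions: 0 genes were called without AA starved polysome A, 1 without AA starved polysome B, 3 without LogPhase monosome A, 8 without AA starved monosome B and 9 without LogPhase polysome A. Conversely, 96 genes were called higher without AA starved monosome A, 120 without serum starved polysome A and 119 without serum starved polysome B.

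H4C11, an H4 gene on chromosome 6 (ORF at 27824116 to 27824436, plus strand, hg38), had the smallest unadjusted p of the histones. It had 2280 and 2408 CPM (coding footprints scaled to library size, libraries A and B) in AA starved monosomes, against 1077 and 757.5 CPM in LogPhase monosomes. In polysomes it had 248.8 and 218 CPM in AA starved cells and 1320 and 1034 CPM in LogPhase cells. Both AA starved libraries lay above both LogPhase libraries in monosomes and below them in polysomes. The log2 monosome over polysome ratio was 3.19 and 3.46 in AA starved cells, against -0.29 and -0.45 in LogPhase cells. The shift was 3.69 with a standard error (SE) of 0.73 (unadjusted p = 0.000157, adjusted p = 0.749 by edgeR with group means) and 3.70 with the letter block (SE 0.61, edgeR adjusted p = 0.00199). It ranged from 3.33 to 3.96 over the alternatives run.

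H3C2, an H3 gene, had the largest shift of the histones that rose, 4.24 with the letter block (SE 0.78, edgeR adjusted p = 0.00395). It had 7891 and 7082 CPM in AA starved monosomes, against 1341 and 647.7 CPM in LogPhase monosomes. Its polysome levels were 4117 and 2785 CPM in AA starved cells and 12840 and 4526 CPM in LogPhase cells. The groups did not overlap in either fraction, although the LogPhase polysome libraries lay far apart.

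H2AC14 and H2AC13, both H2A genes, had shifts of 3.89 and 3.81 with the letter block (edgeR adjusted p = 0.00199 and 0.00253). H2AC14 had 1186 and 793.5 CPM in AA starved monosomes, against 263.8 and 164.7 CPM in LogPhase monosomes. Its log2 ratios were 2.23 and 2.96 in AA starved cells and -1.69 and -0.86 in LogPhase cells, with a wide gap between the conditions. Of the H2B genes, H2BC11 had log2 ratios of 1.68 and 1.92 in AA starved cells, against -1.76 and -1.26 in LogPhase cells, and a shift of 3.33 (edgeR adjusted p = 0.00511). Further genes with the largest shifts that rose were H4C1 (3.79), H4C15 (3.77), H4C2 (3.77), H2AC17 (3.67), H3C7 (3.59) and H4C3 (3.56). An unnamed gene on chromosome 6, ENSG00000276180, had a shift of 4.21 on thinner counts, 18 and 10 footprints in AA starved monosomes against 7 and 4 in LogPhase monosomes.

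Of 58 listed replication-dependent histones 46 had a coding ORF and 44 were tested. With the letter block 26 of the 44 rose, against 1.07% of all tested genes, and 0 fell. A letter effect per fraction gave 40 higher, against 7.01% of all tested genes. Both AA starved ratios lay above both LogPhase ratios in 40 of the 44, against 20.5% of all tested genes. Their median shift was 3.00, against 0.03 for all tested genes, and it was made up of 1.77 in monosomes and -1.27 in polysomes. It was 3.24 in letter A and 2.54 in letter B. It stayed between 2.07 (without LogPhase polysome A) and 3.55 (without LogPhase polysome B) over the 40 alternatives run, while the number that rose with the letter block went from 0 without AA starved polysome A to 34 without either serum starved polysome library.

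All 44 shifts were positive, against 51.5% of all tested genes, and the classes differed in size. All 11 tested H4 genes had ratios above without overlap, against 20.5% of all tested genes. Of these 11 genes 9 rose, and their median shift was 3.57. The share of all tested genes that rose, to be set beside each class, was 1.07%. Of 11 H2A genes 7 rose (median 2.95), of 14 H2B genes 6 rose (median 2.57) and of 5 H3 genes 3 rose (median 3.13). Over the alternatives run, the medians ranged from 2.48 to 4.02 in H4, 1.27 to 3.77 in H2A, 2.07 to 3.15 in H2B and 1.26 to 3.85 in H3. These ranges overlap, and the order of the classes is uncertain. Of 3 linker histone H1 genes only H1-1 rose, with 160.7 and 119.3 CPM in AA starved monosomes against 25.29 and 16.47 CPM in LogPhase monosomes (letter block shift 2.99, SE 0.61, edgeR adjusted p = 0.0102). H1-4, the H1 gene with the deepest counts, had log2 ratios of -0.99 and -1.36 in AA starved cells and -1.29 and -2.32 in LogPhase cells, which overlap, and its shift of 0.65 (SE 0.91) did not pass.

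Replication-dependent histones together took 11.53% and 11.03% of coding footprints in AA starved monosomes, against 4.61% and 3.92% in LogPhase monosomes. In polysomes they took 7.90% and 5.70% in AA starved cells and 12.7% and 9.08% in LogPhase cells. The conditions did not overlap in either fraction.

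**Figure D1:**
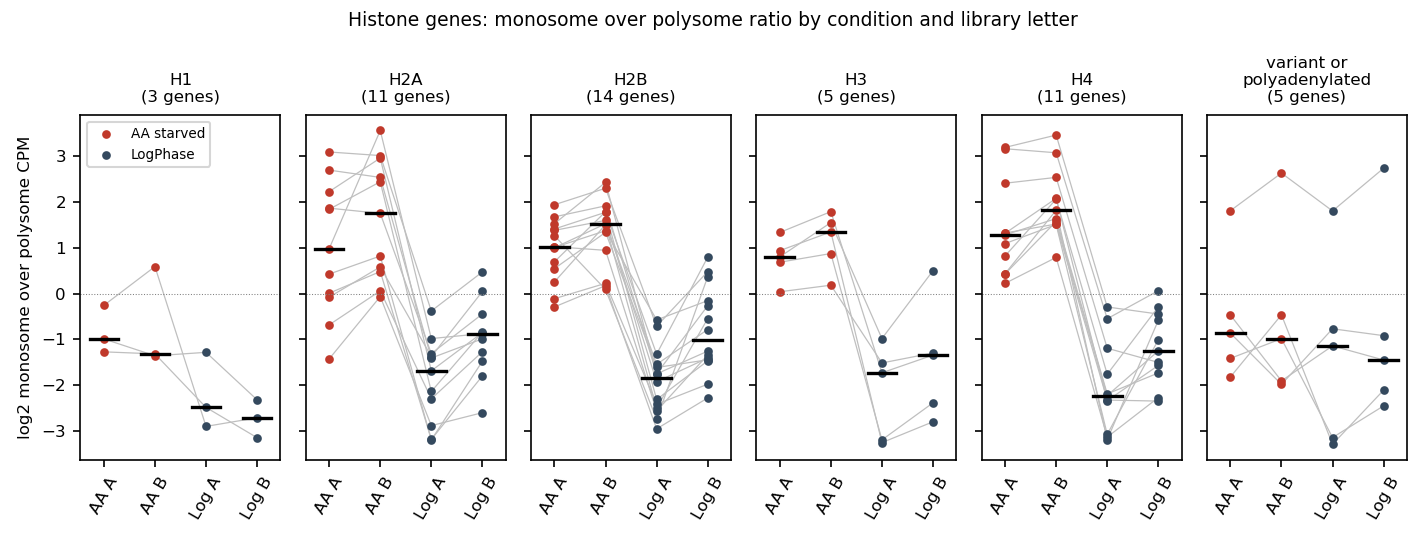
Log2 monosome over polysome ratio (of TMM-scaled CPM) of each tested histone gene by class, in AA starved libraries A and B (red) and LogPhase libraries A and B (dark); grey lines join the values of 1 gene and black bars are medians. The core classes (11 H2A, 14 H2B, 5 H3 and 11 H4 genes) lie mostly above 0 in AA starved and below 0 in LogPhase libraries. Of the 5 variant or polyadenylated genes, 2 have both AA starved ratios above both LogPhase ratios, and the median shift of the 5 is 0.14.

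Histone genes whose mRNAs are polyadenylated or that encode variants were set beside them. Of 9 listed 5 were tested, and their median shift was 0.14. With the letter block 0 rose or fell, and 2 were called higher with a letter effect per fraction, against 7.01% of all tested genes. H3-3A and H3-3B, which encode the replacement histone H3.3, had shifts of 1.61 (SE 0.87) and 1.49 (SE 1.13), did not pass, and had non-overlapping ratios. H3-3A had 222.4 and 137.6 CPM in AA starved monosomes and 65.04 and 54.89 CPM in LogPhase monosomes, with 594.9 and 273 CPM in AA starved polysomes and 579.3 and 302.7 CPM in LogPhase polysomes. H2AZ2, an H2A.Z gene, had a shift of 0.03 (SE 0.96), MACROH2A1 of 0.14 (SE 0.73) and the linker histone H1-10 of -0.74 (SE 0.99). SLBP itself had ratios of -1.28 and -2.05 in AA starved cells, against -1.03 and -2.02 in LogPhase cells, and a shift of -0.12 (SE 0.86) that did not pass. The difference between the replication-dependent and the other histones is a description of 2 lists and was not tested.

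Beside histone symbols and ribosomal proteins, 13 named genes rose. One is LOC102724334, whose symbol gives no gene family, so it is not taken as outside the histones. The others were picked out here after their values were seen except MRPL54 and NDUFAB1. POLR2K, a small subunit shared by RNA polymerases, had 1236 and 733.9 CPM in AA starved monosomes, against 242.1 and 236 CPM in LogPhase monosomes, and a letter block shift of 2.92 (SE 0.60, edgeR adjusted p = 0.0102). CWC15, a spliceosome component, had 1100 and 986.2 CPM in AA starved monosomes and 437.2 and 463.8 CPM in LogPhase monosomes, with 331.1 and 325.3 CPM in AA starved polysomes and 1122 and 631.5 CPM in LogPhase polysomes (shift 2.56, SE 0.58, edgeR adjusted p = 0.019). The monosome levels of both genes did not overlap between conditions, nor did the polysome levels of CWC15, while those of POLR2K overlapped (154.4 and 74.46 CPM in AA starved cells and 360.2 and 121.2 CPM in LogPhase cells). ZNHIT1, a subunit of the complex that places H2A.Z in chromatin, had a shift of 2.82, and BTF3L4, a relative of the nascent chain binding factor BTF3, of 2.11. MRPL54 of the mitochondrial ribosome (3.01), NOPCHAP1 (2.79), PTRHD1 (2.53), PNKD (2.53), the complex I assembly factor NDUFAF3 (2.41), the fatty acid binding protein FABP5 (2.21), and the complex I subunits NDUFB3 (2.45 with 926.9 and 458.7 CPM in AA starved monosomes and 292.7 and 263.5 CPM in LogPhase monosomes) and NDUFAB1 made up the rest of the 13.

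NDUFAB1, the mitochondrial acyl carrier protein, had 729.1 and 926.6 CPM in AA starved monosomes, against 213.2 and 214.1 CPM in LogPhase monosomes. In polysomes it had 736.7 and 585.6 CPM in AA starved cells and 1127 and 703.6 CPM in LogPhase cells. Its monosome levels did not overlap between conditions and its log2 ratios were -0.01 and 0.66 in AA starved cells, against -2.40 and -1.72 in LogPhase cells. The shift was 2.42 both with group means (SE 0.72, unadjusted p = 0.00419) and with the letter block (SE 0.58, edgeR adjusted p = 0.0275).

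**Figure D2:**
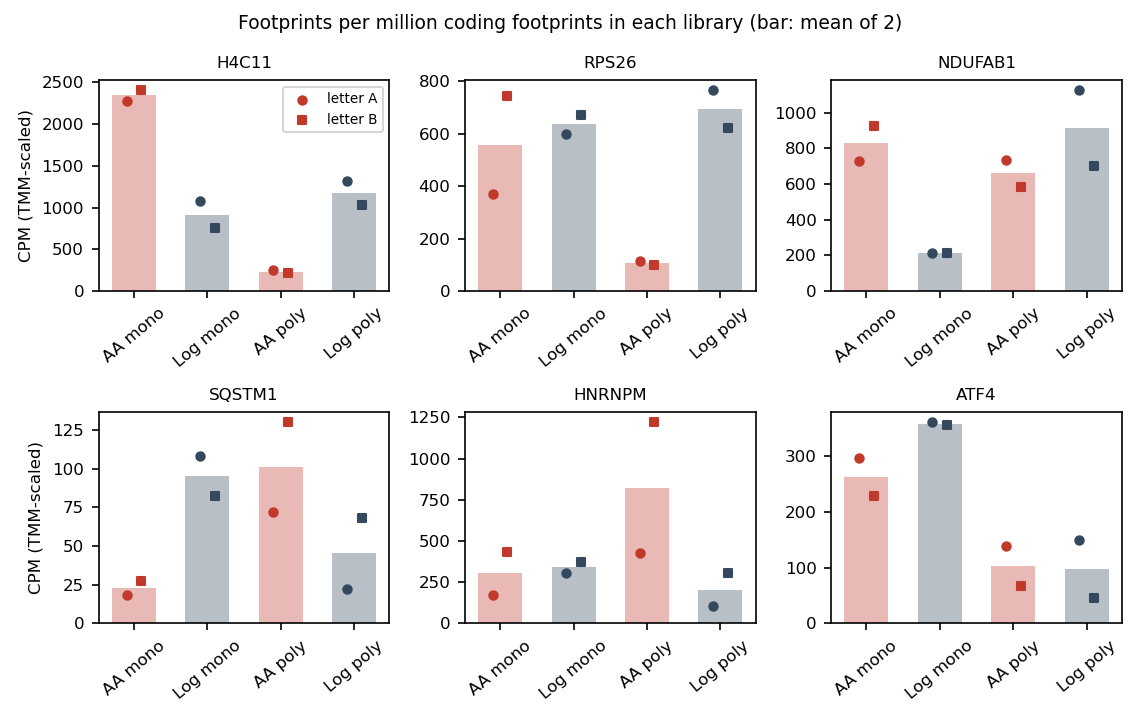
Footprint level (TMM-scaled CPM) of 6 genes in AA starved and LogPhase libraries of each fraction; bars are means of 2 libraries, circles are letter A and squares letter B. H4C11 is higher in AA starved than in LogPhase monosomes and lower in polysomes, RPS26 differs mainly in polysomes, and SQSTM1 runs the opposite way to H4C11.

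Only 4 genes fell with the letter block: PDIA3, SQSTM1, HNRNPM and CTPS1. SQSTM1, the autophagy receptor p62, had 18.54 and 27.52 CPM in AA starved monosomes, against 108.4 and 82.34 CPM in LogPhase monosomes. Its polysome levels were 72.11 and 130.1 CPM in AA starved cells and 22.11 and 68.47 CPM in LogPhase cells. The monosome values were separate and so were the polysome values, and the shift was -3.43 (SE 0.72, edgeR adjusted p = 0.0108), with a range of -4.36 to -2.62 over the alternatives run. HNRNPM, a splicing regulator, differed mostly in polysomes, with 425.5 and 1220 CPM in AA starved cells and 105.1 and 304.5 CPM in LogPhase cells. Its ratio was -1.30 and -1.49 in AA starved cells, against 1.54 and 0.29 in LogPhase cells (shift -2.40, SE 0.61, edgeR adjusted p = 0.0447). CTPS1, which makes CTP from UTP, had ratios of -0.07 and -0.37 in AA starved cells and 1.96 and 1.90 in LogPhase cells (shift -2.17, SE 0.54, edgeR adjusted p = 0.036). PDIA3, a disulfide isomerase of the endoplasmic reticulum, had 0 and 3 footprints in AA starved monosomes against 15 and 11 in LogPhase monosomes, too few for a size.

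The other genes chosen for a lower ratio did not pass. SRSF5, a splicing factor, had ratios of -0.65 and -1.66 in AA starved cells, against 1.02 and 0.52 in LogPhase cells (letter block shift -1.91, edgeR adjusted p = 0.127). The glycolytic enzyme PGK1 had a shift of -2.21, the transferrin receptor TFRC of -1.62, the membrane-binding protein ANXA2 of -1.79 and the prolyl isomerase PPIL4 of -1.85. Ratios without overlap were a condition of the rule that chose these genes, so their separation is not a result. Of all tested genes, 19.1% meet that condition on the lower side.

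Ribosomal proteins, the building blocks of the ribosome itself, took smaller shares of both fractions in AA starved than in LogPhase cells. Of 81 listed 64 were tested, and 2 rose with the letter block, RPS26 and RPL10, against 1.07% of all tested genes. With a letter effect per fraction 37 were called higher, against 7.01% of all tested genes. The ratios were above without overlap in 50 and below in 2, against 20.5% and 19.1% of all tested genes, and the median shift was 1.67. It was -0.61 in monosomes and -2.29 in polysomes: the footprint share of all 64 was lower in AA starved than in LogPhase polysomes. Together they took 5.63% and 9.58% of coding footprints in AA starved monosomes, against 10.6% and 14.3% in LogPhase monosomes, and 4.34% and 3.55% in AA starved polysomes, against 13.95% and 10.1% in LogPhase polysomes. The conditions did not overlap in either fraction, and the polysome difference was the larger. The median was 0.89 without LogPhase polysome A and 2.15 without LogPhase polysome B. With library-size scaling and the letter block 0 of the 64 were called.

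RPS26 had 370.7 and 743.1 CPM in AA starved monosomes, against 599.8 and 669.7 CPM in LogPhase monosomes, which overlap. In polysomes it had 116.6 and 100.3 CPM in AA starved cells and 765.8 and 620.3 CPM in LogPhase cells, a clear gap. Its shift was 2.52 with the letter block (SE 0.63, edgeR adjusted p = 0.0369). RPL10 had 99.75 and 124.1 CPM in AA starved polysomes and 530.1 and 629.7 CPM in LogPhase polysomes, and a shift of 2.48 (SE 0.62, edgeR adjusted p = 0.0396). RPL34 had polysome levels of 210.3 and 203.3 CPM in AA starved cells and 1534 and 866.7 CPM in LogPhase cells, but its shift of 1.97 did not pass (edgeR adjusted p = 0.147), nor did RPS18 (2.34) or RPL7 (1.77).

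RPL41, RPS28 and RPL3 show how members differed. RPL41, the shortest ribosomal protein, had 321.3 and 348.6 CPM in AA starved monosomes, against 2609 and 1869 CPM in LogPhase monosomes, and a shift of -1.42 (SE 0.94) against the trend. RPS28 had 228.6 and 211 CPM in AA starved monosomes and 1388 and 1117 CPM in LogPhase monosomes, and 19.83 and 7.714 CPM in AA starved polysomes against 174.4 and 69.82 CPM in LogPhase polysomes. Its ratios overlapped between the conditions and its shift was 0.66 (SE 1.05). RPL3 had a shift of 0.70 (SE 0.70) and RPS6 of 1.13 (SE 0.77). None of the 4 passed.

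The start sites of 4 ribosomal protein genes are printed as 15 bases on either side of the RefSeq start (GRCh38.p14, 5′ to 3′), with a run that opens with C and holds at least 4 further pyrimidines in capitals where one begins within 3 bases of the start. RPL34 (chr4:108620561-108620590, plus strand) and RPS18 (chr6:33272060-33272089, plus strand) hold such a run, the 5′TOP letters. RPS26 (chr12:56041903-56041932, plus strand) and RPL10 (chrX:154398050-154398079, plus strand), the pair that rose, do not hold one at the start given in this table.
RPL34: aaaggcttttttCTTCCTCTTCCggggacg
RPS18: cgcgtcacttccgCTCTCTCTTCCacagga
RPS26: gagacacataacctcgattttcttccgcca
RPL10: tttttccactctcagaaatatacgtctgtc
A run of this kind was found in 39 of the 52 tested ribosomal protein genes with an entry (75.0%), in 8 of 42 replication-dependent histones (19.0%) and in 15.9% of tested genes. Absence of the letters says only that they are not at this annotated start.

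Other genes of the 5TOP class, which encode translation factors and nascent chain proteins, had a median nearer that of all genes. Of 25 tested 0 rose or fell with the letter block, and their median shift was 0.26. EEF1A1, the elongation factor that delivers aminoacyl-tRNA, had 1118 and 2202 CPM in AA starved monosomes, against 2146 and 3099 CPM in LogPhase monosomes, and a shift of 0.52 (SE 0.84). EEF2 had a shift of 0.24 (SE 1.33), the poly(A) binding protein PABPC1 of 0.64 (SE 1.25) and TPT1 of 0.60 (SE 0.72). BTF3, a nascent chain binding factor, had 1.90 (SE 0.87), and EIF3E and EIF3D, subunits of initiation factor eIF3, had -1.42 (SE 0.69) and -1.61 (SE 0.95). None of these passed.

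**Figure D3:**
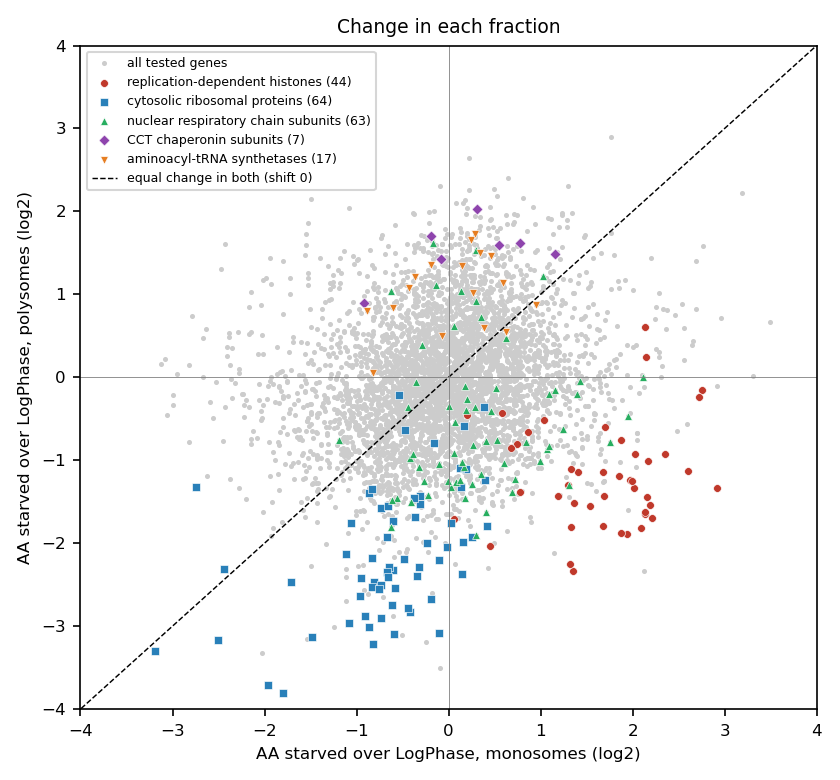
Log2 change of AA starved over LogPhase in monosomes (x axis) and in polysomes (y axis) for 4765 tested genes (grey), with 5 gene lists in colour; the dashed line marks equal change, and 57 genes lie outside the plotted range of 4 on either side. Replication-dependent histones lie at the lower right, ribosomal proteins at the lower left below the line, and CCT subunits and aminoacyl-tRNA synthetases above it.

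Subunits of the mitochondrial respiratory chain that are encoded in the nucleus leaned towards monosomes. Of 63 tested 2 rose with the letter block and 0 fell, and 24 were called higher and 3 lower with a letter effect per fraction. Their median shift was 1.09, with 0.20 in monosomes and -0.78 in polysomes, and 32 had ratios above and 9 below without overlap. Of all tested genes, 20.5% had ratios above and 19.1% below without overlap. With a letter effect per fraction 7.01% of all tested genes were called higher and 3.34% lower. With the letter block 1.07% rose and 0.0839% fell. NDUFS5 of complex I had 1007 and 889.9 CPM in AA starved monosomes, against 296.3 and 266.2 CPM in LogPhase monosomes, and missed the threshold (letter block shift 2.44, SE 0.64, edgeR adjusted p = 0.0537). UQCRB of complex III had a shift of 1.93 that did not pass (edgeR adjusted p = 0.128). The median of the list was 0.30 without LogPhase polysome A, 0.61 without AA starved polysome B and 1.70 without AA starved polysome A. Of 66 mitochondrial ribosomal proteins only MRPL54 rose with the letter block, against 1.07% of all tested genes. With a letter effect per fraction 9 were called higher, against 7.01%, and the median was 0.55. That median was 0.028 without LogPhase polysome A, 0.20 without AA starved polysome B and 0.91 without AA starved polysome A.

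Prefoldin and the chaperonin CCT, which hand over and fold actin and tubulin, had medians of opposite sign. They also differed in median ORF length, 423 nt for prefoldin and 1635 nt for CCT, and the part of length was not tested. All 6 prefoldin subunits had ratios above without overlap, against 20.5% of all tested genes, and a median shift of 1.48. With the letter block 0 of them passed, while 4 were called higher with a letter effect per fraction, against 7.01% of all tested genes. The median was 0.72 without LogPhase polysome A. PFDN1 had ratios of 1.07 and 0.70 in AA starved cells, against -1.55 and -0.57 in LogPhase cells, and a letter block shift of 1.93 (SE 0.55, edgeR adjusted p = 0.0869). Of 7 CCT subunits 6 had ratios below without overlap, against 19.1% of all tested genes, and the median was -1.51. With the letter block 0 passed, and 4 were called lower with a letter effect per fraction, against 3.34% of all tested genes. The median was -0.87 without AA starved polysome B, and -0.94 without LogPhase monosome A with the letter block. CCT2 had 234.8 and 247.7 CPM in AA starved monosomes, against 318 and 233.3 CPM in LogPhase monosomes, which overlap. Its polysome level was 355.8 and 528.3 CPM in AA starved cells and 99.86 and 171.6 CPM in LogPhase cells, a gap between the conditions, and its letter block shift was -1.96 (SE 0.59, edgeR adjusted p = 0.111). TCP1, the subunit that gave the complex its name, had a shift of -1.73 (edgeR adjusted p = 0.204).

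Aminoacyl-tRNA synthetases, which charge tRNAs with amino acids, had a median shift of -1.15 over 17 tested genes, with 0.24 in monosomes and 1.08 in polysomes. With the letter block 0 passed, and 6 were called lower with a letter effect per fraction, against 3.34% of all tested genes. Ratios were below without overlap in 11 and above in 0, against 19.1% and 20.5% of all tested genes. The median was -0.60 without AA starved polysome B, and -0.68 without LogPhase monosome A with the letter block. YARS1, the tyrosine enzyme, had 173 and 146.8 CPM in AA starved monosomes, against 299.9 and 290.9 CPM in LogPhase monosomes, and a letter block shift of -1.76 (SE 0.59, edgeR adjusted p = 0.152). HARS1 (-1.74) and SARS1 (-1.56) were alike in size, and neither passed. GARS1 had ratios of -0.34 and -1.03 in AA starved cells, against -0.36 and -0.67 in LogPhase cells, which overlap, and WARS1 had a shift of 0.07 (SE 0.69). These 2 members were picked after their values were seen.

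Genes of the amino acid response, the targets and regulators of the GCN2 and ATF4 pathway, had shifts of both signs and a negative median. Of 37 listed 17 were tested, 6 with a positive and 11 with a negative shift. Among all tested genes 51.5% had a positive shift. With the letter block 0 of the 17 passed, and the median was -0.48, or -0.10 without AA starved polysome B. ATF4, the transcription factor at its centre, had 296.6 and 229.3 CPM in AA starved monosomes, against 361.3 and 356.8 CPM in LogPhase monosomes. In polysomes it had 138.8 and 67.08 CPM in AA starved cells and 150.3 and 45.05 CPM in LogPhase cells, with overlap, and a shift of -0.52 (SE 0.87). SLC38A2, an amino acid transporter, had 90.74 and 211.6 CPM in AA starved polysomes and 44.96 and 82.43 CPM in LogPhase polysomes, and a shift of -0.78 (SE 0.83). SHMT2 had -1.76 (SE 0.91), SLC7A1 -1.53 (SE 1.08) and MTHFD2 0.94 (SE 0.63). ASNS, DDIT3 and SESN2 had no tested coding ORF under their names.

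Several further lists had negative medians, with HNRNPM their only member that fell. SR and hnRNP splicing factors had a median of -0.71 over 34 genes. With the letter block 1 was lower (HNRNPM), against 0.0839% of all tested genes. A letter effect per fraction gave 10 lower, against 3.34% of all tested genes, and 16 lay below without overlap, against 19.1%. Leaving out single libraries moved that median between -1.46 (LogPhase polysome B) and -0.17 (AA starved polysome B). Cell cycle and replication genes had -0.78 over 29, between -1.66 without LogPhase polysome B and -0.28 without AA starved polysome B, and the helicase subunits MCM7 and MCM4 had letter block shifts of -2.04 and -1.95 (edgeR adjusted p = 0.0761 and 0.122). In the same list CKS2, which binds cyclin-dependent kinases, had a shift of 2.37 that did not pass (edgeR adjusted p = 0.101). Ribosome biogenesis factors had a median of -0.49 over 23 genes (-1.03 without LogPhase polysome B and -0.23 without LogPhase polysome A), with GNL3 at -1.82 and the short snoRNP proteins NOP10 and NHP2 at 1.66 and 1.43. The glycolytic list had -0.50 over 10 genes, with PKM at -1.80 and TPI1 at 1.37. The proteasome had 0.05 over 40 genes, and GAPDH, ACTB and ODC1 had shifts of 0.55 (SE 0.87), -0.94 (SE 0.89) and -0.03 (SE 0.65) and ratios with no gap between the conditions.

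**Figure D4:**
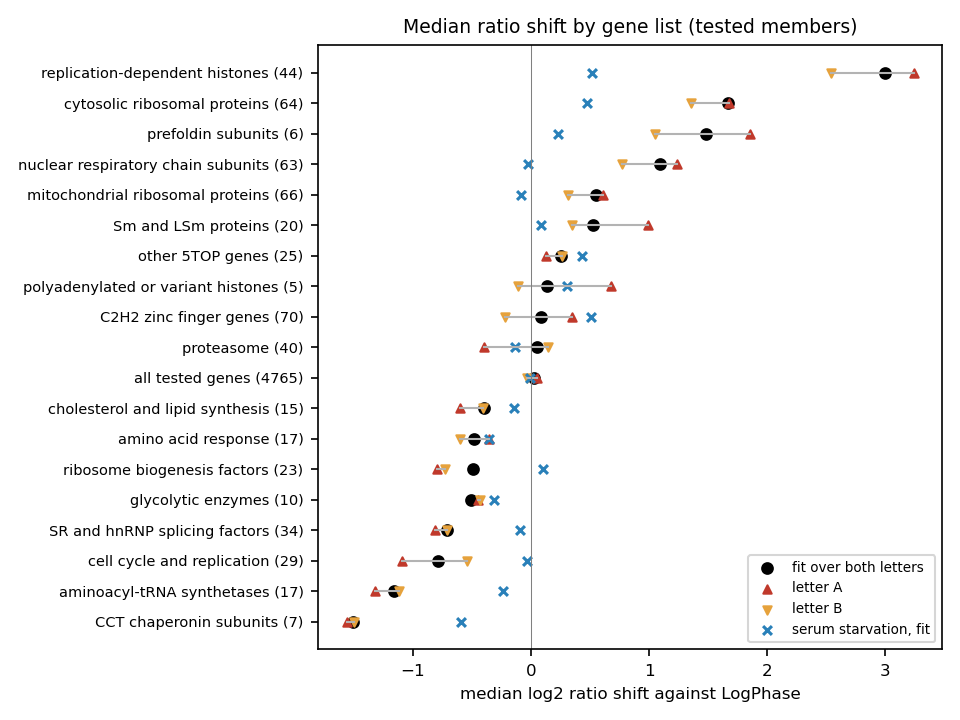
Median log2 ratio shift of AA starved against LogPhase cells for the tested members of 18 gene lists and for all tested genes (black, with letters A and B as triangles), with the serum starvation shift as a cross. Replication-dependent histones lie at 3.00 and CCT subunits at -1.51, and serum starvation medians lie nearer 0 in both.

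The shift was weakly related to the length of the main coding ORF, and it did not fall steadily from bin to bin. The median was 0.09 under 300 nt, 0.48 from 300 to 600 nt, -0.01 from 600 to 1200 nt, -0.57 from 1200 to 2400 nt and -0.26 from 2400 nt on. Across genes, which are not independent and share all libraries, Spearman's rho with length was -0.25, with -0.23 in letter A and -0.19 in letter B. It was -0.24 without the histones, and it was 0.06 for the change in monosomes and 0.36 for that in polysomes. Of the 51 genes that rose 49 had a main ORF under 600 nt, as did 46.0% of tested genes. In that range the histone list had medians of 3.38 (16 genes under 300 nt) and 2.60 (29 genes from 300 to 600 nt), against 0.07 and 0.46 for the other genes. Median lengths were 438 nt for ribosomal proteins, 408 nt for respiratory chain subunits and 1452 nt for aminoacyl-tRNA synthetases. Whether length accounts for the medians of the lists was not tested. Of 7031 coding ORFs 847 are of the type CDS and the rest are truncations or variants, so these are lengths of called ORFs, not of annotated genes.

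**Figure D5:**
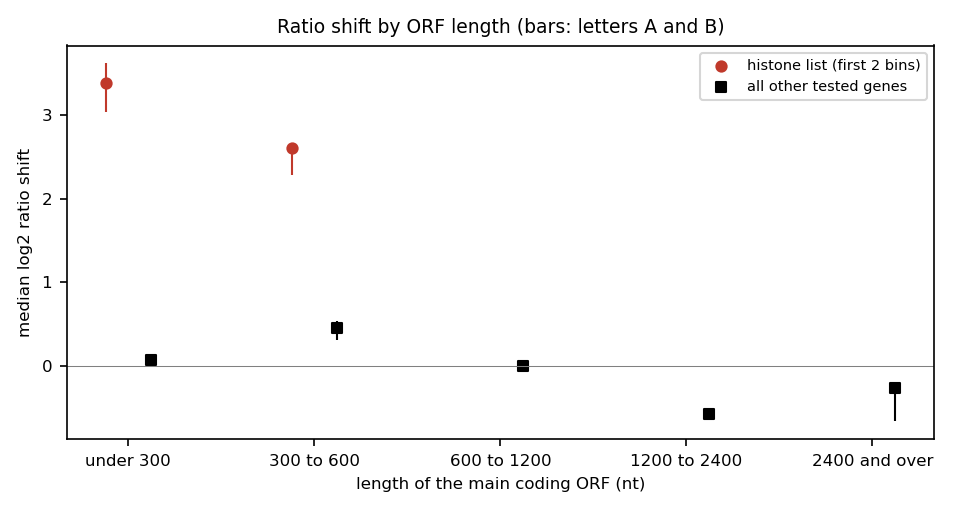
Median log2 ratio shift by length of the main coding ORF (nt), for the histone list (red, bins with 16 and 29 genes) and all other tested genes (black); vertical lines span letters A and B. The other genes lie between -0.57 and 0.46, and the histones in the same bins lie above 2.

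Serum starvation served as a test of whether the shift is common to starvation. The median shift of replication-dependent histones was 3.00 in AA starved and 0.52 in serum starved cells. Their share of coding footprints was 11.53% and 11.03% in AA starved monosomes and 6.04% and 4.98% in serum starved monosomes, with no overlap. In polysomes it was 7.90% and 5.70% in AA starved and 13.8% and 7.06% in serum starved cells, which overlap. Tested directly, the AA starvation ratio differed from the serum starvation ratio in 0 of 4765 genes with group means by edgeR. At an unadjusted p under 0.05 there were 167 (3.5%), of which 117 were higher (2.46%) and 50 lower (1.05%), and DESeq2 called 11, all higher (0.231%). With the letter block 11 genes were called (0.231%), 10 higher (0.21%) and 1 lower (0.021%). A letter effect per fraction gave 268 higher (5.62%) and 128 lower (2.69%), 8.31% in all, and one per condition 9 higher (0.189%) and 1 lower (0.021%), 0.21% in all. Of the 10 higher with the letter block, H4C1, H4C2, H4C11, H4C12, H2AC13, H2AC14 and H2AC18, the last with its unnamed copy, are histone genes. For H2AC18 and its copy the main called ORF is 12 nt long. H4C11 had a difference of 3.23 (SE 0.61, edgeR adjusted p = 0.00977). Ribosomal proteins had a median shift of 1.67 in AA starved and 0.47 in serum starved cells, and 0 of the 64 passed this test with the letter block.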

How the data were processed

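The authors deposited expected counts of ribosome footprints per ORF and library, from the caller PRICE, which the table's name gives. Its score values for start and range, also deposited by the authors, were not used. The submitters' processing notes list Bowtie 1.0 and hg38, with no role given. The caller's p-value per ORF, also deposited, served only for a stricter ORF set (p under 0.0001). Coding ORFs (CDS, Trunc, Variant) were summed per gene with each codon counted once, rounded, and named by position in RefSeq (5892 of 6375 genes), whose assembly is GRCh38.p14. Genes were filtered with filterByExpr (minimum count 10, total 15), TMM-scaled and fitted with edgeR 4.0.16 in R 4.3.3 over all 6 groups. SE is the shift divided by the root of F. CPM uses TMM-scaled library sizes, and letter ratios a prior count of 0.5. Models were run on simulated data with a letter effect shared by all libraries and a spread taken from the letter block fit. Such data cannot tell which block suits the libraries used here.

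No label ties the letters A and B to a replicate number, but B minus A deviations correlated in each of 15 pairs of groups (r of 0.156 to 0.843), so blocked values stand beside the others. The common biological coefficient of variation was 0.433 with group means, 0.272 with the letter block, 0.192 with a letter effect per fraction and 0.312 with one per condition. The members and lists were chosen with earlier results of these data known. Named are up to 10 genes per direction with non-overlapping ratios and an average of at least 30 footprints in the higher group of each fraction, for every list the 3 genes of lowest unadjusted p, and preset genes; some of these are not reported here. Alternatives were DESeq2 1.42.0, other scalings, filters, ORF sets and blocks, thinning and leaving out each library. No size is given where an AA starved or LogPhase group holds at most 3 footprints, and serum starved groups were not checked for this.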

Additional observations from a re-analysis of the deposited data

Results flagged for a closer look

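The AA starvation ratio differed from the serum starvation ratio, by edgeR's test of that difference with the letter block, in 11 genes. The log2 differences of AA starved over serum starved cells were 2.92 for H4C12, 3.20 for H2AC18 and the same for ENSG00000272196, whose counts are identical, 3.23 for H4C1, 3.23 for H4C11, 3.27 for H2AC13, 3.34 for H4C2 and 3.36 for H2AC14. EML6 had 6.19 and LRP1 7.19. The thinnest of their AA starved and LogPhase groups held 14 and 6 footprints, and their serum starved groups were not part of that check. The shifts of EML6 and LRP1 against LogPhase were 1.20 and 1.00 in AA starved and -4.78 and -5.98 in serum starved cells. NXF1, the mRNA export receptor, had -2.98, with a shift of -1.36 in AA starved and 1.55 in serum starved cells. None of the 11 passed with group means alone.

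Outside the coding ORFs, a non-coding RNA ORF of 6 nt on chromosome 12 took 8.72% of all footprints in AA starved polysome A and 0.000115% in AA starved polysome B, against 0.00404% and 0.000167% in LogPhase polysomes A and B. It is not part of the scaling used here.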

How the results depend on the processing

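With group means, RLE and library-size scaling, both other filters, the ORF sets, thinning, the 8 libraries alone, scaling without histone and ribosomal protein genes and every left-out library gave 0 calls, while DESeq2 gave 26 and the replicate block gave 55 (letter), 493 (letter within fraction) and 34 (letter within condition). The letter block gave 36 calls with library-size scaling and 126 with only the 8 libraries, both added after the data were seen, and 0 to 155 without single libraries. Against serum starvation the counts were 0 with group means and with each library left out, 11 with DESeq2, 11 (letter), 396 (letter within fraction) and 10 (letter within condition). The median shift of all genes, 0.03, became -0.31 with library-size and -0.11 with RLE scaling. Over 40 alternatives, medians changed sign for glycolytic enzymes (0.40 with CDS-type ORFs, 1 gene, and, with libraries left out, -1.09 to 0.077), cell cycle genes (0.78 with CDS-type ORFs, 4 genes) and Sm and LSm proteins (-0.088 to 1.17 with libraries left out, the lowest without LogPhase polysome A) and, from medians nearer 0, for the other 5TOP genes (lowest -0.21), proteasome (lowest -0.43), variant histones (lowest -0.19), elongation factors (lowest -0.13), C2H2 zinc finger genes (lowest -0.49), initiation factors (highest 0.11) and ER chaperones (highest 0.43), and the cause was not tested. Of 3727 values for 96 named genes 27 changed sign, with PABPC1 at -0.74 to 1.98, EEF2 at -1.23 to 1.16 and ATF4 at -1.69 to 0.10 among them, and with group means none of the genes was called, so no call could reverse. In monosomes, 1556 and 1142 coding genes had no footprint in AA starved libraries A and B and 1006 and 722 in LogPhase libraries A and B, which limits genes with low counts.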

Other observations

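An internal ORF of 9 nt on chromosome 12 took 47.5% of all footprints in AA starved monosome A and 0.935% in AA starved monosome B, against 47.9% and 0.721% in LogPhase monosomes A and B. In serum starved monosomes A and B it took 0.0% and 0.796%, so not every monosome library lettered A had the high share. It lies outside the coding set, and coding footprints were 23.02% and 47.37% of AA starved monosomes A and B, against 24.02% and 44.45% of LogPhase monosomes A and B.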
